A study of Mus musculus with 35 samples.

Results

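Gpnmb, Mlph and 4 genes of melanosome transport (Rab27a, Myo5a, Rab38 and Rab32) were followed through 35 RNA libraries of mouse kidney. They are 6 of the 31053 genes in the counts, taken by their symbols and joined to every library by Ensembl identifier. Gpnmb and Mlph were chosen by their measured increase in libraries labelled Flcn KO over the controls of that cross, so the values of all 6 genes in that cross are given as a description, without a test. The Flcn/Tfeb and Flcn/Tfe3 crosses did not serve to pick Gpnmb and Mlph and were tested. Earlier results of these data were, however, known when the members and gene lists were chosen. The question of the design is how far changes that follow loss of Flcn are still seen when Tfeb or Tfe3 is lost as well.

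Kidneys were taken at postnatal day 2 from mice on a C57BL/6 background, and total RNA was sequenced from the 3′ ends of transcripts (QuantSeq). The study's Flcn KO mice carry Flcn flox/flox and Ksp-cre, the Flcn/Tfeb DKO mice carry Tfeb flox/flox in addition, and the Flcn/Tfe3 DKO mice carry Flcn flox/flox and Ksp-cre on a Tfe3-/- background. Ksp-cre is driven by the cadherin 16 promoter, which is active in collecting ducts and distal nephron segments, so Flcn and Tfeb are removed in part of the kidney's cells, whereas Tfe3-/- mice lack Tfe3 in the whole body. The labels call the controls only controls of their cross and do not spell out their alleles. There were 5 Flcn KO libraries with 5 controls, 4 Flcn/Tfeb DKO libraries with 3 controls, and 10 Flcn/Tfe3 DKO libraries with 8 controls. The first 2 crosses make up set A. Counts of the Flcn/Tfe3 cross are split over 2 tables, called set B (6 DKO libraries, 3 controls) and set C (4 DKO libraries, 5 controls). The labels call the libraries biological replicates and name no animals, so p values measure the spread between these libraries.

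Gpnmb is a transmembrane glycoprotein of melanosomes, lysosomes and phagosomes, named for its study in melanoma and also made by macrophages and osteoclasts. In pigment cells the GTPase Rab27a sits on the mature melanosome, its effector melanophilin (Mlph) binds it, and melanophilin in turn holds the actin motor myosin Va (Myo5a), which tethers the organelle at the cell periphery. Loss of any of these 3 dilutes coat colour in mice. Rab38 and Rab32 are related GTPases that act earlier, in the delivery of pigment enzymes to the growing melanosome. In other tissues the same proteins serve lysosome-related organelles and secretion. TFEB and TFE3 are relatives of the melanocyte factor MITF and bind E-box motifs.

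Upstream sequences are shown for Gpnmb, Mlph and Rab27a, the 3 members with the largest increases, because MITF, TFEB and TFE3 bind short E-box motifs. They are the 250 bases before the RefSeq start on GRCm38.p6 (plus strand, 5′ to 3′), and capitals mark any match to CACGTG, to TCATGTG or to the longer CLEAR motif, which contains CACGTG, on either strand.
Gpnmb chr6:49036268-49036517: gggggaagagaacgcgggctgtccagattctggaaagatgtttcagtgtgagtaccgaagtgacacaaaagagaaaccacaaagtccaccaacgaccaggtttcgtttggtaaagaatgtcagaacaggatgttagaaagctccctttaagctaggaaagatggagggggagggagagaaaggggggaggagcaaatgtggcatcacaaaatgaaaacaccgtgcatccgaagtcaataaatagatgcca
Mlph chr1:90914850-90915099: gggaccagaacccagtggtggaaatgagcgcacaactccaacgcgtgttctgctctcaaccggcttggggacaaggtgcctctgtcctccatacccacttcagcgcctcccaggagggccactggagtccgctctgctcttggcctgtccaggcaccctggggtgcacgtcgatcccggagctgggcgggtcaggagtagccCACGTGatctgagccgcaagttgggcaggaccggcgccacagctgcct
Rab27a chr9:73044560-73044809: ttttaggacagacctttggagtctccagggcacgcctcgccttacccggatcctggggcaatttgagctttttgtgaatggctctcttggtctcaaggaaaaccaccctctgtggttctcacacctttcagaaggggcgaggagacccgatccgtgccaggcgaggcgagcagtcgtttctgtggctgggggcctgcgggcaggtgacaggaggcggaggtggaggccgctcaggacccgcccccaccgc
Windows of 300 bases (250 before to 50 after the start) matched 5 of the 6 members, Rab27a with 2 entries. Mlph holds CACGTG from position -48 relative to its start. The second entry of Rab27a, not printed, holds CACGTG from position -246. Of all 32851 windows, 7.15% hold CACGTG, 3.77% hold TCATGTG and 0.326% hold the CLEAR motif. The windows of Gpnmb, Myo5a and Rab32 hold none of these letters. A match is a description of the letters and not a binding site.

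The annotation (GENCODE M21 on mm10) places the protein-coding genes Gpnmb (ENSMUSG00000029816) at chr6:49036546-49070929 and Mlph (ENSMUSG00000026303) at chr1:90915085-90951142, both on the plus strand. Rab27a (ENSMUSG00000032202) lies at chr9:73044854-73097629 and Myo5a (ENSMUSG00000034593) at chr9:75071015-75223688. Rab38 (ENSMUSG00000030559) lies at chr7:88430273-88491572 and Rab32 (ENSMUSG00000019832) on the minus strand at chr10:10545002-10558265. A processed pseudogene on the same strand overlaps Rab27a, and pseudogenes on the other strand overlap Myo5a (2) and Rab38 (1), so the counts of these 3 genes may lack reads that could not be assigned to one gene.

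Libraries held 1652649 to 4239356 counts on genes (median 2992169). Levels are given as CPM, counts relative to library sizes that were scaled together by TMM (trimmed mean of M values), and on this scale 3 counts correspond to 0.639 to 2.09 CPM depending on the library. Counts from 3′ ends are not divided by length here, and levels are compared between libraries and not between genes. The ranges of the targeted genes overlap between the labels: Flcn ranged from 10.3 to 18.8 CPM in Flcn KO libraries (controls 11.9 to 16.4), Tfeb from 6.48 to 7.94 CPM in Flcn/Tfeb DKO libraries (controls 7.005 to 19.5) and Tfe3 from 12.4 to 24.6 CPM in Flcn/Tfe3 DKO libraries (controls 15.3 to 24.8). Tfeb had a lower summed count than its controls, relative to library size (ratio 0.545, 95% counting interval 0.395 to 0.750), but control Flcn/Tfeb replicate 3 alone had 19.5 CPM, and without it the ratio was 0.928 (0.591 to 1.49). For Flcn the ratio was 1.03 (0.836 to 1.26) and for Tfe3 0.957 (0.850 to 1.08). The controls of set A had 27.0 to 43.2 CPM of Tfe3, all above the controls of the Flcn/Tfe3 cross. Whether this lies in the set or in the alleles of the controls cannot be told apart here. A 3′ read need not cover the deleted part of a gene, so the values of the targeted genes are a weak check. KO and DKO are used here as the labels give them.

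In set A, 3 controls stand apart from the rest. Control Flcn replicates 4 and 5 and control Flcn/Tfeb replicate 3 had 4.47% to 4.93% of their counts on mitochondrial genes and TMM factors of 1.10 to 1.16. The other 5 controls of set A had 9.16% to 11.1% and factors of 0.907 to 0.994, and the libraries labelled Flcn KO had 7.33% to 11.1% mitochondrial counts. Some values that rest on these 3 controls are also given without them, a choice made after seeing the data. The others, such as list medians and the nearest genes, are given with them only. The part of what sets these controls apart in the values of the members was not tested.

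Gpnmb was near 0 in the controls of the Flcn cross and clearly counted in every library labelled Flcn KO. The 5 controls had 0.476, 0, 0, 0.247 and 0.587 CPM, from 1, 0, 0, 1 and 2 counts. Libraries labelled Flcn KO had 13.5, 10.0, 13.2, 15.7 and 6.75 CPM, from 28, 35, 36, 25 and 23 counts. The groups do not overlap. Summed over libraries there were 147 counts against 4, a ratio of 37.7 with a 95% counting interval of 14.4 to 140.3, which covers counting error only. Without control replicate 5, which holds 2 of the 4 control counts, the ratio was 56.6 (15.4 to 472). The fitted log2 fold change was 5.10 (SE 0.48) and ranked 1 of 11932 genes, and it rests on these few control counts. The rank carries no weight, because Gpnmb was chosen by its increase in this cross. It also passed the low-count filter through the Flcn KO libraries. As whole kidneys were used, more cells that make a transcript and more transcript per cell cannot be told apart here.

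Mlph, the adaptor between Rab27a and myosin Va, was also higher in every library labelled Flcn KO. Its controls had 0.476, 2.73, 3.19, 1.98 and 2.06 CPM and the Flcn KO libraries 11.6, 10.6, 12.9, 13.8 and 9.39. The groups are far apart, with a log2 fold change of 2.46 (SE 0.32). For Rab27a, the GTPase that melanophilin binds, the controls had 3.33, 4.55, 4.78, 8.66 and 10.6 CPM. The Flcn KO libraries had 20.2, 16.4, 15.1, 14.4 and 18.8 CPM, each above each control. The log2 fold change of Rab27a was 1.33 (SE 0.27). Its 2 highest controls are replicates 4 and 5, and without both the log2 fold change was 2.002 (SE 0.30), where Mlph had 2.42 (SE 0.42) and Gpnmb 5.76 (SE 0.70). Gpnmb, Mlph and Rab27a are thus the 3 members whose Flcn KO libraries all lie above all controls, as 1.67% of the 11932 genes do, and nothing is read from this count because the cross served to pick members.

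Myo5a, the motor that melanophilin engages, overlapped between these groups. It had 35.7, 41.4, 52.0, 40.6 and 46.7 CPM in controls and 53.5, 49.1, 56.3, 53.9 and 47.8 CPM in libraries labelled Flcn KO, of which 3 lay above every control. Its log2 fold change was 0.27 (SE 0.12). Rab32 had 7.14 to 14.3 CPM in controls (median 12.7) and 6.27 to 10.6 CPM in libraries labelled Flcn KO (median 8.61), with a log2 fold change of -0.41 (SE 0.25). Rab38 had 1.91 to 4.78 CPM in controls (median 3.64) and 1.84 to 3.73 CPM in libraries labelled Flcn KO (median 2.64) and was left out by the low-count filter. For both GTPases of cargo delivery, then, the Flcn KO libraries lie within or partly below the range of the controls.

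**Figure D1:**
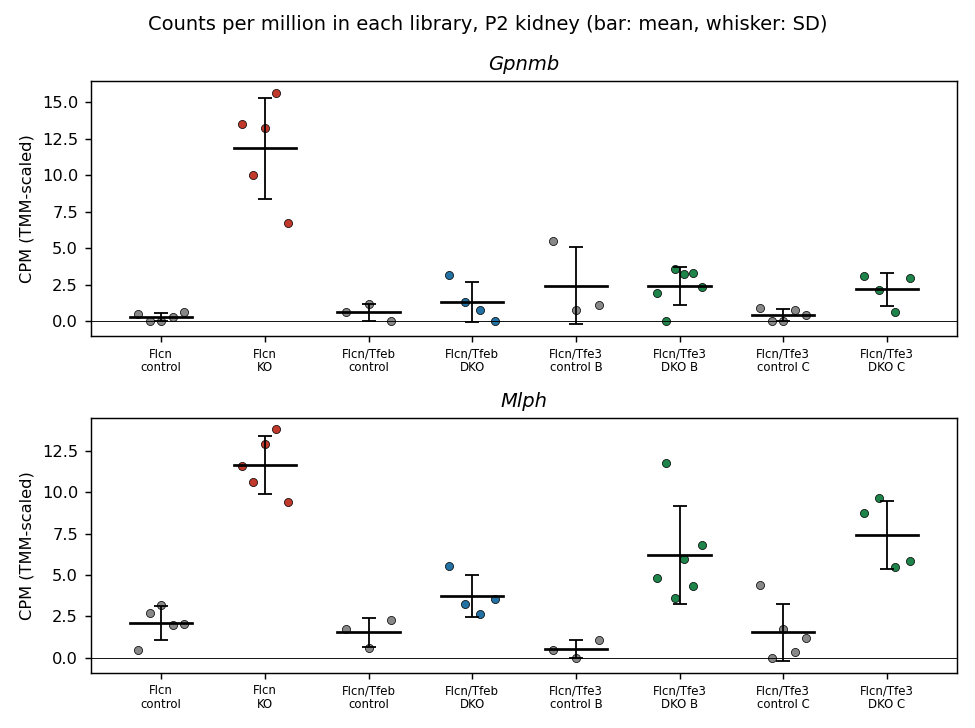
Gpnmb (top) and Mlph (bottom) in each of 35 libraries, as CPM on a linear axis, by group and set. Points are libraries, bars means and whiskers SD. Gpnmb reaches 6.75 to 15.7 CPM in libraries labelled Flcn KO and at most 5.49 CPM in any other library, a control of set B. Mlph is higher in the DKO libraries than in the controls of their own cross and set.

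In the Flcn/Tfeb cross, Gpnmb was low in controls and DKO libraries, and a change was not resolved. The 3 controls had 0.584, 1.17 and 0 CPM (1, 2 and 0 counts) and the 4 DKO libraries 3.18, 1.30, 0.761 and 0 CPM (8, 2, 2 and 0 counts). Only the first DKO library exceeds 3 counts, and the groups overlap. Summed counts were 12 against 3, a ratio of 2.99 with a 95% counting interval of 0.807 to 16.5. It was 6.75 without control replicate 2, 1.48 without control replicate 3 and 1.37 without DKO replicate 1, so it rests on single libraries. The low-count filter left Gpnmb out, and an exact two-sided permutation test over the 7 libraries on log2(CPM + 1) gave p = 0.457, where the smallest p that 35 regroupings allow is 0.0286. Fitted without the filter, Gpnmb had a log2 fold change of 1.31 (SE 1.28, adjusted p = 0.79, edgeR).

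Mlph lay above its controls in all libraries labelled Flcn/Tfeb DKO. The controls had 1.75, 0.584 and 2.30 CPM (3, 1 and 8 counts) and the DKO libraries 5.56, 3.24, 2.66 and 3.54 CPM (14, 5, 7 and 9 counts). The groups do not overlap, but the gap is small, from 2.30 to 2.66 CPM. The difference of means on log2(CPM + 1) was 0.93 (p = 0.0286 by exact permutation, two-sided, which is the lowest value this design allows and is not adjusted for the 4 tests of this kind). Among the 12469 genes tested in this cross, 2.71% had all DKO libraries above all controls. With any 1 library left out the difference was 0.62 to 1.15, highest without control replicate 3, and the design can no longer reach 0.05. Without the filter, edgeR's test gave Mlph a log2 fold change of 1.16 (SE 0.67, adjusted p = 0.79).

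Rab27a showed no call in the Flcn/Tfeb cross. It had 4.09, 6.42 and 8.05 CPM in controls and 6.75, 8.42, 5.71 and 8.26 CPM in DKO libraries, which overlap. The log2 fold change was 0.18 (SE 0.37, adjusted p = 0.91 from edgeR's quasi-likelihood test), and without control replicate 3 it was 0.45 (SE 0.45, adjusted p = 0.96, edgeR). Myo5a had 37.4, 43.8 and 33.6 CPM in controls and 34.9, 35.6, 40.7 and 45.6 CPM in DKO libraries, a log2 fold change of 0.035 (SE 0.19, adjusted p = 0.97 in the same edgeR test).

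Rab32 had 11.1, 11.7 and 5.46 CPM in the controls of the Flcn/Tfeb cross and 13.1, 13.6, 13.3 and 13.4 CPM in the DKO libraries. All 4 DKO libraries lie above the controls and close to each other, one of the 2.71% of genes with this order. The log2 fold change of 0.54 (SE 0.32) was not called (edgeR, adjusted p = 0.80), and without control replicate 3, at 5.46 CPM, it was 0.22. Rab38 had 1.17, 1.17 and 7.47 CPM in controls and 3.57, 2.59, 4.57 and 1.57 CPM in DKO libraries (exact permutation test, p = 0.771). The third control, with 26 counts, sets the spread of Rab38 there, and without it the difference on log2(CPM + 1) goes from 0.20 to 0.85. The edgeR estimate without the filter has the other sign (log2 fold change -0.23, SE 0.68). In this cross 0 of 12469 genes were called by edgeR (0%), with 632 (5.07%) at an unadjusted p under 0.05 and 0 by DESeq2, so 0 of 3 tested members called is the rate of all genes.

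**Figure D2:**
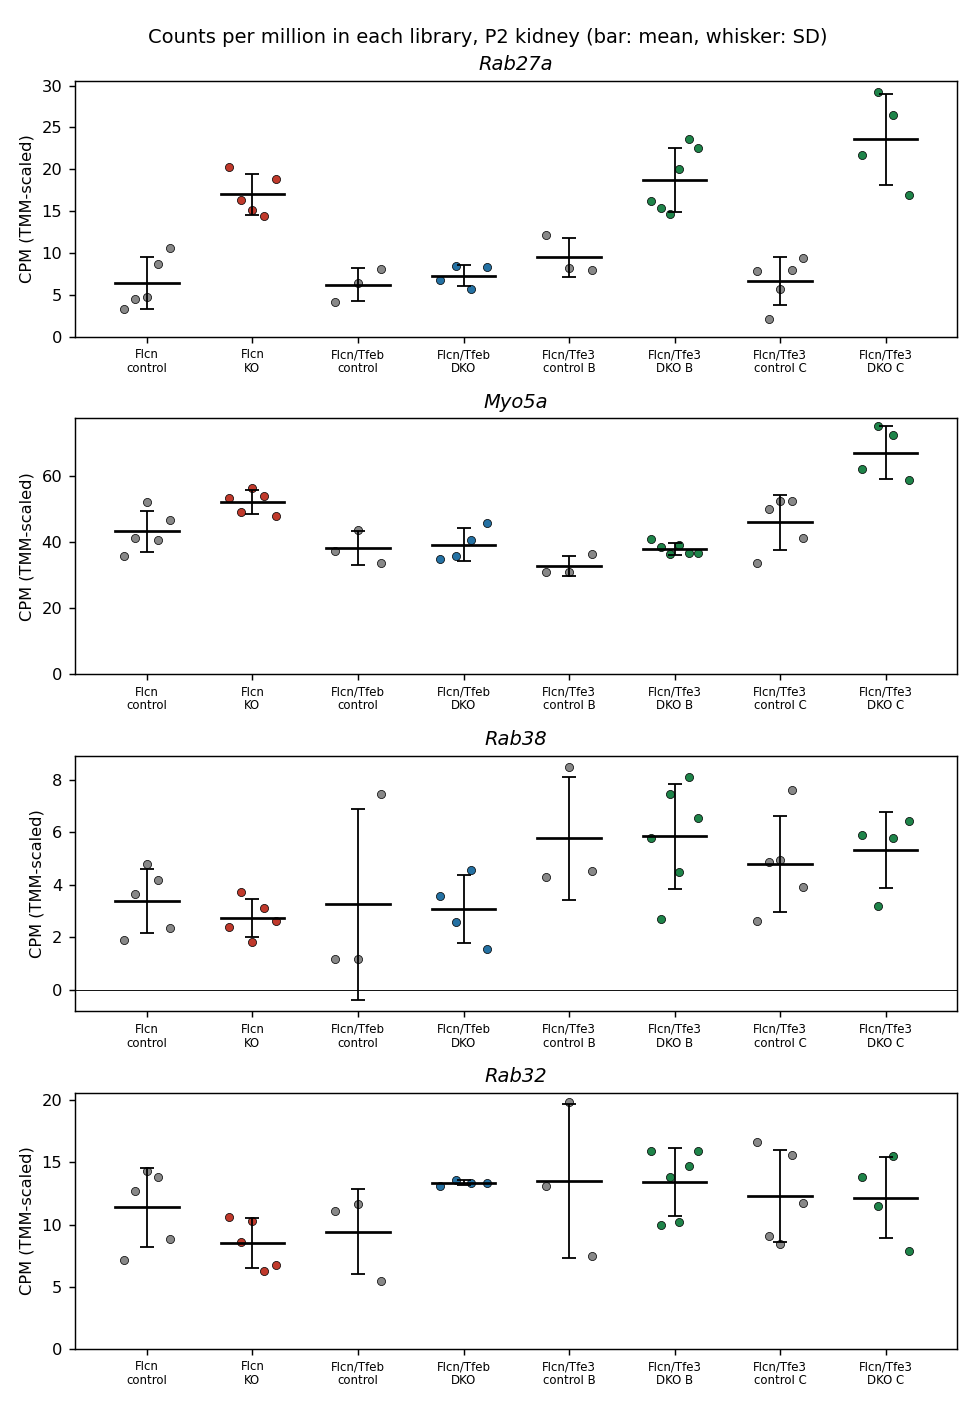
Rab27a, Myo5a, Rab38 and Rab32 in each of 35 libraries, as CPM on linear axes, by group and set. Points are libraries, bars means and whiskers SD. All 10 Flcn/Tfe3 DKO libraries hold 14.6 CPM of Rab27a or more, above the 12.2 CPM of the highest control of that cross, whereas the Flcn/Tfeb DKO libraries hold at most 8.42 CPM.

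In the Flcn/Tfe3 cross Mlph and Rab27a rose. Mlph had 0.478, 0 and 1.07 CPM (2, 0 and 4 counts) in the controls of set B and 3.59 to 11.8 CPM (median 5.39) in the 6 DKO libraries of that set. In set C it had 4.38, 0, 1.76, 0.380 and 1.18 CPM in controls and 8.73, 9.64, 5.47 and 5.84 CPM in DKO libraries. Within each set every DKO library lies above every control, as holds for 1.72% of genes in set B and 3.74% in set C, although the highest control of set C lies above the lowest DKO libraries of set B. The log2 fold change was 2.71 (SE 0.43, adjusted p = 0.0014, edgeR with the set as a term), rank 1 among 12456 genes tested. Mlph had 0 to 10 counts in these controls and 13 to 39 in the DKO libraries. It therefore passed the low-count filter through the DKO libraries, and its rank is only a description. Fitted without the filter it had 2.73 (SE 0.42, adjusted p = 0.00021, edgeR). Set B alone gave 3.55 with an adjusted p of 0.077 in edgeR, and set C alone 2.16.

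Rab27a had 12.2, 8.24 and 8.002 CPM in the controls of set B and 14.6 to 23.6 CPM (median 18.1) in the DKO libraries. In set C it had 7.88, 2.09, 5.64, 7.98 and 9.41 CPM in controls and 21.7, 29.2, 26.5 and 16.9 CPM in DKO libraries. Thus all 10 DKO libraries lie above all 8 controls, an order that 0.120% of the genes tested show. The log2 fold change was 1.38 (SE 0.21, adjusted p = 0.00058, edgeR), rank 10 of 12456. It was 0.99 in set B alone (adjusted p = 0.33 in edgeR) and 1.76 in set C alone. An edgeR test of the difference between the sets, chosen after seeing the data, gave 0.82 (SE 0.38, adjusted p = 0.21), where 162 of 12456 genes (1.30%) were called. For Mlph it gave -1.32 (SE 0.93, adjusted p = 0.40, edgeR).

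Myo5a moved little beside them but in the same order within each set. It had 31.0, 31.0 and 36.3 CPM in the controls of set B and 36.4 to 41.0 CPM (median 37.5) in the DKO libraries. In set C the controls had 33.7, 50.1, 52.5, 52.5 and 41.2 CPM and the DKO libraries 62.2, 75.2, 72.4 and 58.7 CPM. In set B the gap is only that from 36.3 to 36.4 CPM. The log2 fold change of 0.40 (SE 0.11) did not pass the threshold (edgeR, adjusted p = 0.14). Mlph, Rab27a and Myo5a are the 3 members, of 5 tested, with every DKO library above every control of its own set in both sets, as 34 of the 12456 genes are (0.273%). Of these, Mlph is among the tested genes through its DKO libraries.

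Gpnmb in the Flcn/Tfe3 cross was low in both sets, with single libraries apart from the rest. In set B the 3 controls had 5.49, 0.727 and 1.07 CPM (23, 3 and 4 counts) and the 6 DKO libraries 0 to 3.59 CPM (median 2.77). In set C the controls had 0.875, 0, 0, 0.760 and 0.392 CPM (2, 0, 0, 2 and 1 counts) and the DKO libraries 3.10, 2.14, 0.608 and 2.92 CPM (11, 8, 2 and 10 counts). The first control of set B exceeds all 10 DKO libraries, while DKO replicate 2 has a Gpnmb count of 0 although its Mlph, at 11.8 CPM, is the highest of the DKO libraries.

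Summed counts of Gpnmb were 59 against 30 in set B, a ratio of 0.989 (95% counting interval 0.627 to 1.59), and 31 against 5 in set C, a ratio of 5.20 (2.00 to 17.1). In set B, 23 of the 30 control counts come from control Flcn/Tfe3 replicate 1, and without that library the ratio there was 2.77 (1.26 to 7.18, 59 counts against 7). The exact two-sided permutation test within sets gave a difference on log2(CPM + 1) of 0.62 with p = 0.117, with p = 0.857 in set B and p = 0.0317 in set C. Without control Flcn/Tfe3 replicate 1 the difference was 0.92 (p = 0.0201, exact permutation test), and without DKO replicate 2 it was 0.78 (p = 0.0213), so single libraries decide on which side of 0.05 this result falls. The level itself stayed under that of the libraries labelled Flcn KO, whose lowest value is 6.75 CPM.

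Rab38 and Rab32 showed no difference that passed the test in the Flcn/Tfe3 cross. Rab38 had 2.63 to 8.48 CPM in controls (median 4.70) and 2.72 to 8.13 CPM in DKO libraries (median 5.85), a log2 fold change of 0.089 (SE 0.25, adjusted p = 0.96, edgeR). Rab32 had 7.47 to 19.9 CPM (median 12.4) and 7.88 to 15.9 CPM (median 13.8), a log2 fold change of -0.0051 (SE 0.20, adjusted p = 1.0 in edgeR). For both genes the range of the DKO libraries lies within that of the controls. In all, 2 of the 5 tested members, Mlph and Rab27a, were called higher, where 43 of 12456 genes (0.345%) were called higher in this cross. As Mlph passed the filter through its DKO libraries, this count is a description.

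**Figure D3:**
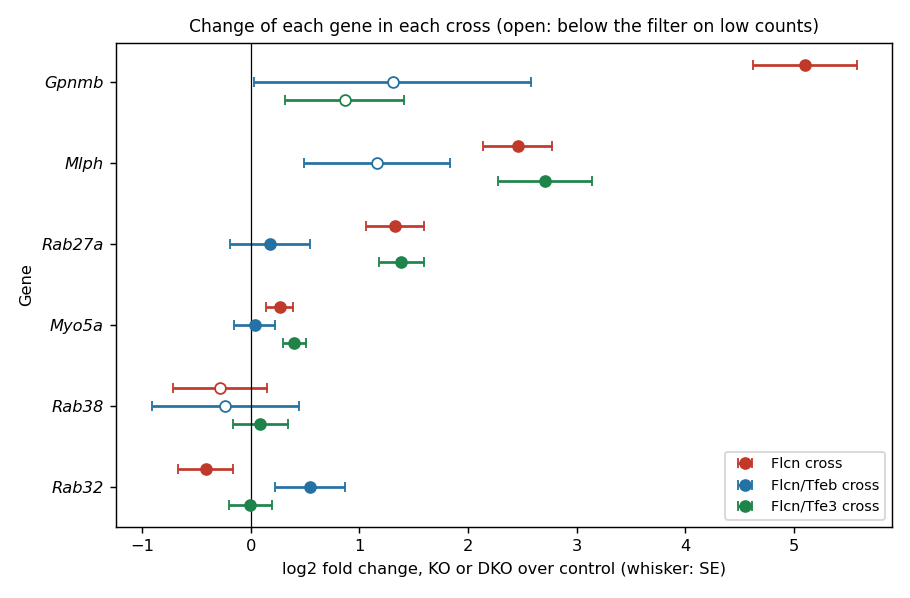
Log2 fold change of each member, KO or DKO over the controls of the same cross, in the 3 crosses. Points are edgeR estimates and whiskers SE, with open points for genes under the filter on low counts, fitted without it. Gpnmb has 5.10 in the Flcn cross, and over all libraries Mlph and Rab27a have 2.46 and 1.33 there and 2.71 and 1.38 in the Flcn/Tfe3 cross.

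The difference between the effects in the DKO crosses was tested as an interaction of each cross with its own controls. The Flcn/Tfeb cross lies wholly in set A and the Flcn/Tfe3 cross in sets B and C. Cross and set therefore cannot be told apart in these differences. The effect of Rab27a was larger in the Flcn/Tfe3 cross by 1.21 (SE 0.42), which did not pass the threshold over 13637 genes (edgeR, p = 0.0078, adjusted p = 0.30). For Mlph the difference was 1.54 (SE 0.85, adjusted p = 0.45, edgeR), and for Myo5a 0.35 (SE 0.21, adjusted p = 0.48, edgeR). For Gpnmb the difference was -0.59 (SE 1.41, adjusted p = 0.89, edgeR), the largest SE of the 6 members. Rab38 gave 0.34 (SE 0.62, adjusted p = 0.84, edgeR) and Rab32 -0.57 (SE 0.39, adjusted p = 0.54, edgeR). Thus 0 of 6 members were called, against 3 of all genes (0.0220%), and at an unadjusted p under 0.05 there were 1659 genes (12.2%), among the members Rab27a alone. Without control Flcn/Tfeb replicate 3 the difference was 0.93 for Rab27a (SE 0.51), 1.05 for Mlph (SE 1.13), 0.27 for Gpnmb and -1.29 for Rab38, the last 2 with the other sign. With any 1 library left out, it was -0.77 to -0.23 for Rab32 and 0.23 to 0.45 for Myo5a.

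Set against the Flcn KO effect, which served to pick members, the differences are a description. For the Flcn/Tfe3 effect, cross and set again cannot be told apart, as the Flcn cross lies in set A. For Gpnmb the Flcn/Tfeb effect was lower by 3.70 on the log2 scale (difference -3.70, SE 1.54) and the Flcn/Tfe3 effect by 4.38 (difference -4.38, SE 0.96). Mlph gave -1.32 (SE 0.63) for the Flcn/Tfeb effect and 0.24 (SE 0.59) for the Flcn/Tfe3 effect. Rab27a gave -1.18 (SE 0.45) and 0.052 (SE 0.36) in the same order. Rab32 went the other way for the Flcn/Tfeb effect, with 0.96 (SE 0.40), and had 0.41 (SE 0.33) for the Flcn/Tfe3 effect. Myo5a gave -0.23 (SE 0.21) and 0.14 (SE 0.16), and Rab38 0.011 (SE 0.79) and 0.37 (SE 0.45). Without control Flcn replicates 4 and 5 the value of Rab27a in the Flcn/Tfe3 cross was -0.64 (SE 0.40), so that its closeness to the Flcn KO effect rests on these controls, and that of Mlph was 0.26 (SE 0.70). Without the 3 controls of set A that stand apart, in the Flcn/Tfeb cross Rab27a gave -1.55 (SE 0.48), Mlph -0.77 (SE 0.96) and Gpnmb -5.21 (SE 1.75). Rab32 gave 0.64 (SE 0.41) and Myo5a -0.31 (SE 0.23) in that fit. Without control Flcn/Tfeb replicate 3 alone, Rab38 gave 1.66 (SE 0.82). The size of the Gpnmb differences rests on single libraries too. Without control Flcn/Tfe3 replicate 1, which takes the ratio of summed counts in that cross from 1.61 to 3.87, the Flcn/Tfe3 difference was -3.30 (SE 0.95). The Flcn/Tfeb difference was -2.67 (SE 2.32) without control replicate 2 of that cross, -4.55 (SE 1.51) without control replicate 3 and -4.73 (SE 1.53) without DKO replicate 1, where the ratio of summed counts goes from 2.99 to 6.75, 1.48 and 1.37. Gpnmb thus lay below its Flcn KO effect in each of these fits, by an amount that differs among them.

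The levels of each gene order the groups as follows. Gpnmb is highest in libraries labelled Flcn KO (11.8 ± 3.49 CPM, SD, n = 5), followed by Flcn/Tfe3 DKO (2.31 ± 1.19, n = 10), Flcn/Tfeb DKO (1.31 ± 1.35, n = 4) and the controls of the Flcn/Tfe3, Flcn/Tfeb and Flcn crosses (1.16 ± 1.79, 0.584 ± 0.584 and 0.262 ± 0.269, n = 8, 3 and 5). The place of the Flcn/Tfe3 controls is set by replicate 1 (5.49 CPM), without which their mean is 0.546 ± 0.424 (SD, n = 7), below that of the Flcn/Tfeb controls. The step from the first group to the second exceeds their spread, and the neighbours after it overlap. Mlph goes from Flcn KO (11.7 ± 1.75) through Flcn/Tfe3 DKO (6.69 ± 2.59) and Flcn/Tfeb DKO (3.75 ± 1.26) to the controls (1.15 to 2.08), with overlapping ranges at each step between neighbouring groups. Rab27a is highest in Flcn/Tfe3 DKO (20.7 ± 4.92) and Flcn KO (16.98 ± 2.47), whose ranges overlap, and the other groups lie between 6.18 and 7.68 CPM. Sets were deposited as separate tables, so levels across sets carry any difference between them.

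**Figure D4:**
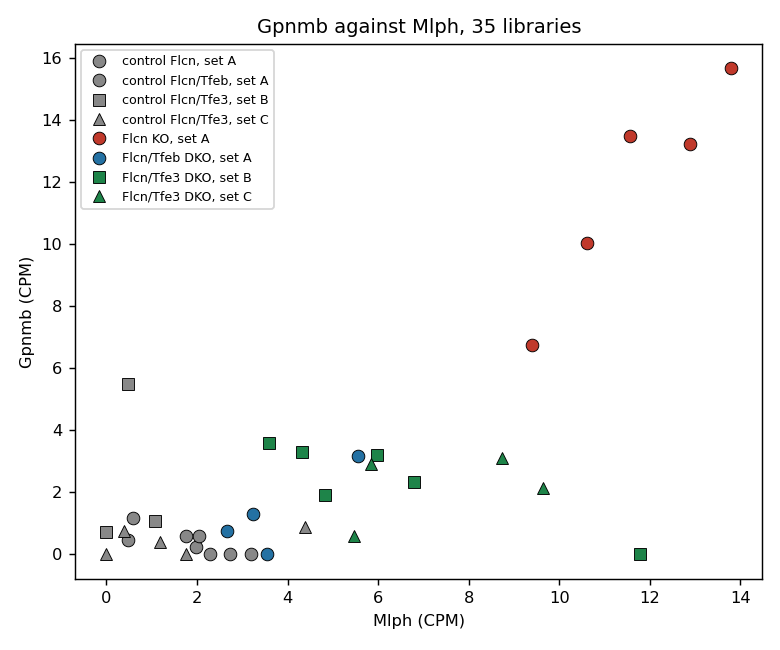
Gpnmb against Mlph, both in CPM on linear axes, in 35 libraries. Colours mark controls (grey), Flcn KO (red), Flcn/Tfeb DKO (blue) and Flcn/Tfe3 DKO (green), and shapes mark sets. The 5 Flcn KO libraries stand apart in Gpnmb but share their range of Mlph with 2 Flcn/Tfe3 DKO libraries, and the Flcn/Tfe3 DKO libraries hold 3.59 to 11.8 CPM of Mlph with at most 3.59 CPM of Gpnmb.

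Genes with the most similar pattern were sought over 4 differences of mean log2(CPM + 1), those in the Flcn cross, the Flcn/Tfeb cross and sets B and C of the Flcn/Tfe3 cross, among 12972 genes with a mean of at least 10 counts in at least 1 group. The Flcn cross is 1 of the 4, so this is a description. Nearest to Mlph was Aqp6, a water channel of intercalated cells, at a Euclidean distance of 0.71. Aqp6 had differences of 2.07, 0.74, 1.55 and 1.86 where Mlph had 2.11, 0.93, 2.23 and 1.94. The next were S100a14 (distance 1.14), Guca2a (1.42), which encodes guanylin, Pdia2 (1.44) and Sprr2f (1.49), and Rab27a was the gene at rank 7 (1.67).

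Gpnmb had differences of 3.32, 0.43, 0.099 and 1.15, and no gene came as near to it as Aqp6 to Mlph. Its nearest genes were Nrip3 (distance 1.47), Tmem61 (1.52), Pdia2 (1.83), Rorb (1.87), a nuclear receptor, and Ahnak2 (1.90). All 5 had a smaller difference in the Flcn cross than Gpnmb, from 1.48 (Rorb) to 2.06 (Tmem61). Gpnmb was chosen by its increase in that cross, so nothing is read from this order or from the larger distances. Among the members, Rab27a was at rank 18 (2.22) and Mlph at rank 66 (2.63) in nearness to Gpnmb. The widest gap between Gpnmb and Mlph is in set B (0.099 against 2.23), where the value of Gpnmb rests on control Flcn/Tfe3 replicate 1.

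**Figure D5:**
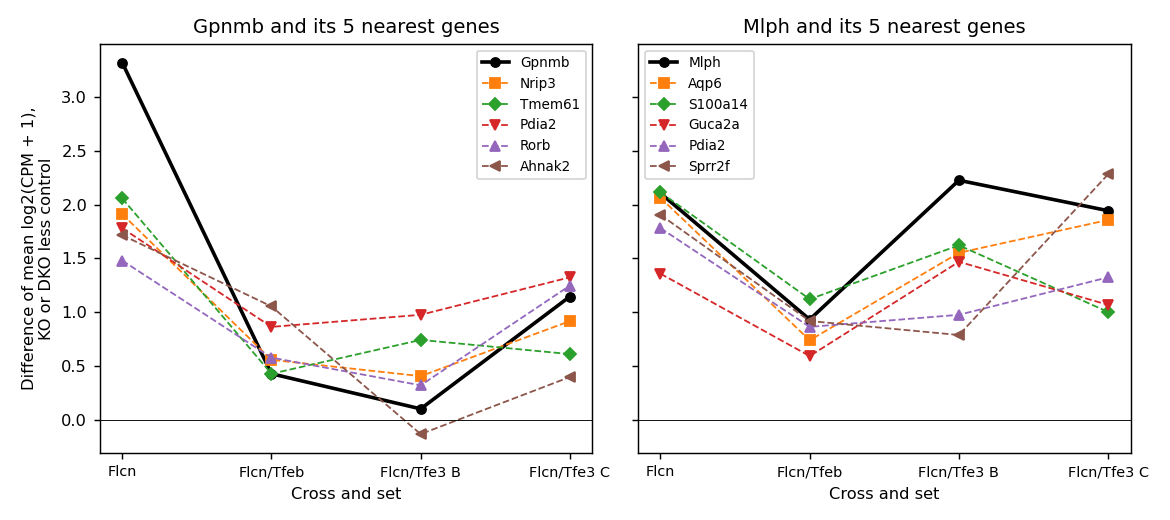
Pattern of Gpnmb (left) and Mlph (right) with the 5 nearest genes of each, as differences of mean log2(CPM + 1), KO or DKO less control, in the 4 cross and set combinations on the horizontal axis. The black line is the member. Gpnmb drops from 3.32 in the Flcn cross to 0.43 in the Flcn/Tfeb cross, while Mlph has 1.94 or more in both sets of the Flcn/Tfe3 cross.

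The other genes of the pathway were taken from hand-compiled lists. Of the 9 other effectors and relatives of Rab27a (such as Sytl2, Sytl4 and Rab27b), 4 were tested, and 0 were called in any of the 3 crosses. Their median log2 fold change was 0.43 (Flcn cross), 0.075 (Flcn/Tfeb) and 0.024 (Flcn/Tfe3), where all genes tested had medians of -0.0074, -0.017 and 0.0090. Of the 9 genes that load, prenylate or switch off Rab27 (such as Madd and Chm), 8 were tested and 0 called in any cross, with medians of 0.053, -0.077 and -0.024. All 6 partners of Rab32 and Rab38, among them Hps1 and Hps4, which form their exchange factor, were tested, and 0 were called, with medians of 0.041, -0.12 and 0.069.

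Of the 10 myosin V relatives and partners, 7 were tested in the Flcn cross and 8 in each of the others, with 0 called. Among 20 genes for the biogenesis of lysosome-related organelles, 18 were tested in the Flcn and Flcn/Tfeb crosses and 20 in the Flcn/Tfe3 cross. Snapin, a subunit of the BLOC-1 complex, was the 1 gene of this list called, higher in the Flcn cross, where 62 of 11932 genes (0.520%) were called (log2 fold change 0.71, SE 0.15), and it is named after its value was seen. In the Flcn/Tfe3 cross its log2 fold change was -0.026 (SE 0.13). Of 5 relatives and partners of Gpnmb, Pmel included, 4 were tested and 0 called in each cross. In the Flcn/Tfeb cross, where no list gene was called, the smallest p among list genes was that of Fcgr3, an Fc receptor of macrophages (log2 fold change 1.05, SE 0.37, adjusted p = 0.80, edgeR).

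Markers of other cells were read beside the members. Of 13 melanocyte markers, Tyr had 0 counts in all 35 libraries, Tyrp1 had 1 count in all, and Mlana, Dct and Pmel had at most 4, 6 and 7 counts in a library. Mitf, with 2857 counts, and Slc24a5, with 298, make up most of the list. Its summed level was 27.0 to 42.2 CPM in libraries labelled Flcn KO and 26.7 to 42.3 CPM in their controls, 22.02 to 28.9 against 26.3 to 29.8 CPM in the Flcn/Tfeb cross, and 26.2 to 45.0 against 21.9 to 40.2 CPM in the Flcn/Tfe3 cross. Tyr, Tyrp1, Mlana, Dct and Pmel are thus at or near 0, but other genes of the list were counted, Sox10 with 120 counts in all and at most 19 in a library. Slc24a5, a cation exchanger of melanosomes, had higher mean levels in the Flcn KO and Flcn/Tfe3 DKO libraries than in their controls, and a lower mean level in the Flcn/Tfeb DKO libraries. It had 3.14 to 7.46 CPM in libraries labelled Flcn KO against 0.587 to 1.73 CPM in controls, without overlap, and 0.393 to 3.81 against 0.862 to 3.50 CPM in the Flcn/Tfeb cross. The low-count filter left Slc24a5 out of the Flcn cross, where 1.67% of the genes tested had all Flcn KO libraries above all controls. In the Flcn/Tfe3 cross Slc24a5 had 1.97 to 5.84 against 0 to 3.53 CPM, a log2 fold change of 1.65 (SE 0.40) that was not called (adjusted p = 0.079, edgeR). Its difference between the DKO crosses was 1.71 (SE 0.89, adjusted p = 0.43, edgeR). Mitf, the other melanocyte gene tested in the Flcn/Tfe3 cross, had a log2 fold change of 0.084 (SE 0.15) there, -0.23 (SE 0.23) in the Flcn/Tfeb cross and -0.42 (SE 0.17) in the Flcn cross. Slc24a5 and Sox10 were picked out here after their values were seen, and the part of melanocytes in the values of the members was not tested.

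Macrophage markers, of interest because macrophages make Gpnmb, were counted for all 15 genes of the list in every group. Their summed level was 228.9 to 269 CPM in libraries labelled Flcn KO and 193 to 299 CPM in controls. Control Flcn replicates 4 and 5 had 205 and 193 CPM, and the other controls of that cross 251 to 299 CPM. In set B the summed level was 278 to 335 CPM in DKO libraries and 254 to 284 CPM in controls, and in set C 147 to 194 against 165 to 236 CPM. In the Flcn/Tfeb cross it was 205 to 312 CPM in DKO libraries, and the controls had 238, 253 and 172 CPM in order of replicate. There, 10 of the 12 macrophage genes tested had a log2 fold change above 0 (median 0.16), a larger share than the 47.9% of all genes tested (median -0.017). The control of set B with 5.49 CPM of Gpnmb had 284 CPM of macrophage markers, beside 269 and 254 CPM in the other controls of that set. In each cross 0 of 12 or 13 tested macrophage genes were called. Of 6 osteoclast markers 1 or 2 were tested in each cross and 0 called, and their summed level was 9.41 to 18.8 CPM in libraries labelled Flcn KO against 7.43 to 13.2 CPM. Acp5, an acid phosphatase of osteoclasts and macrophages and the 1 osteoclast gene tested in the Flcn cross, had 2.51 to 9.57 CPM in libraries labelled Flcn KO and 0.953 to 4.11 CPM in controls, a log2 fold change of 1.04 (SE 0.39). Its log2 fold change was -0.096 (SE 0.39) in the Flcn/Tfeb cross and -0.56 (SE 0.34) in the Flcn/Tfe3 cross. Ctsk, the protease cathepsin K, had 0.20 (SE 0.51) and 0.051 (SE 0.28) in the same crosses, and its Flcn/Tfeb and Flcn/Tfe3 effects less the Flcn KO effect were 0.18 (SE 0.69) and 0.027 (SE 0.54), where those of Acp5 were -1.15 (SE 0.58) and -1.63 (SE 0.56). Both genes were picked out with their values known. The part of these cells in the change of Gpnmb was not tested.

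Of 8 genes of the segments in which Ksp-cre is active, Umod, which encodes uromodulin of the thick ascending limb, was called higher in the Flcn/Tfe3 cross (log2 fold change 0.71, SE 0.098, adjusted p = 0.00022, edgeR) and in the Flcn cross (1.001, SE 0.12), and the other 7 were not called in either. In the Flcn/Tfeb cross Umod had -0.24 (SE 0.26, adjusted p = 0.83, edgeR), and its difference between the DKO crosses was 0.93 (SE 0.23, p = 0.00033, adjusted p = 0.26, edgeR). In the Flcn/Tfe3 cross 48 genes (0.385%) were called in either direction. With the replicate number as a block 0 were called there, so the call of Umod was lost. Few libraries of this cross share a replicate number between the groups, so that fit has little to measure the spread. The summed level of these 8 genes was 1781 to 2296 CPM in libraries labelled Flcn KO and 1486 to 2040 CPM in controls, 1599.98 to 1699.8 against 1651 to 1943 CPM in the Flcn/Tfeb cross, and 1504 to 2036 against 1460.1 to 1870 CPM in the Flcn/Tfe3 cross. Of 6 proximal tubule genes, 0 had a log2 fold change above 0 in the Flcn cross (median -0.22), 1 in the Flcn/Tfeb cross (median -0.16) and 1 in the Flcn/Tfe3 cross (median -0.18), and 0 were called. Of all genes tested, 48.5%, 47.9% and 51.9% were above 0 in these crosses. Of 9 genes of other kidney cells, such as podocytes and endothelium, 8, 8 and 9 were tested and 0 called. Of these, 1, 1 and 7 were above 0, with medians of -0.030, -0.38 and 0.067 in the same order of crosses. The share of mitochondrial counts was 10.4% to 11.9% in libraries labelled Flcn/Tfeb DKO and 4.47% to 10.7% in their controls, and 1.79% to 4.27% against 2.10% to 7.80% in the Flcn/Tfe3 cross. In set C every DKO library was deeper than every control (3159884 to 3555791 against 1719367 to 2909353 counts), whereas the ranges overlap in set B. Whether segment makeup, depth or mitochondrial share has a part in the values of the members was not tested.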

How the data were processed

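Reads from QuantSeq 3′ libraries were trimmed by the authors (bbduk in the methods, Trim Galore in the submitters' processing notes), aligned to mm10 with STAR and counted per gene with HTSeq-count; the strand setting is not given in the sources used here. The deposited values are raw counts, not normalized, and tallies of reads on no gene or on several places were left out of library sizes (in the 26 libraries with tallies, 33.7% to 49.4% of reads mapped to several places and 7.92% to 19.9% fell on no gene). A column with the share of multiply mapped reads was not used. Of 63 pairs of libraries within a group and set none agreed within sampling noise (chi-square per degree of freedom 2.71 to 39.1).

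The 6 members and the gene lists were chosen with earlier results of these data known. Counts were fitted in edgeR 4.0.16 (R 4.3.3) after TMM scaling and a low-count filter (filterByExpr, by group), using the two-sided quasi-likelihood test. Calls needed a Benjamini-Hochberg adjusted p under 0.05 over all genes of the fit. The set was a term for the Flcn/Tfe3 cross. Members under the filter were compared by exact permutation of libraries on log2(CPM + 1), within sets. Ratios of summed counts carry exact (Clopper-Pearson) intervals. The rule for named genes took the 6 members, Flcn, Tfeb and Tfe3, list genes called in the Flcn/Tfeb or Flcn/Tfe3 cross (the smallest p where none was) and the 5 genes nearest to Gpnmb and to Mlph. Alternatives were DESeq2 1.42.0, RLE factors, no filter, a mean of at least 10 counts, the replicate number as a block, each set alone and each library left out. The fits were tested on simulated data. RefSeq gave the upstream sequences (GRCm38.p6). Figures were drawn with matplotlib.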

Additional observations from a re-analysis of the deposited data

How the results depend on the processing

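The calls of Mlph and Rab27a in the Flcn/Tfe3 cross were kept in each of the 18 fits that left out 1 library (2 members called throughout; adjusted p at most 0.0069 for Mlph and 0.0022 for Rab27a in edgeR) and with DESeq2, RLE factors, no filter, a mean of at least 10 counts and set C alone. They were lost (0 members called) with set B alone and with the replicate number as a block, where Mlph had 3.54 (adjusted p = 0.11, edgeR) and Rab27a 1.04 (adjusted p = 0.61, edgeR). Only replicate numbers 1 to 3 of set B and 7 and 8 of set C occur in both groups. The block thus takes up the other libraries of this cross and leaves little to measure the spread. Same-numbered libraries did not deviate together (correlations from -0.34 to 0.32), so the numbers are not taken as pairs.

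The number of genes called moved from 62 in the Flcn cross to 116 with DESeq2 and 95 with no filter (37 to 58 without 1 library, with 37 and 40 the values without Flcn KO replicates 3 and 2 39 without replicate 4, and 51 without control replicates 4 and 5 together, a choice made after seeing the data). In the Flcn/Tfe3 cross it moved from 48 to 93 with DESeq2, 0 with the replicate block, 8 in set B and 569 in set C (30 to 53 without 1 library, lowest without DKO replicate 7). In the Flcn/Tfeb cross it was 0 to 1 without 1 library. For the difference between the DKO crosses it moved from 3 to 14 with DESeq2, 0 with the replicate block, 0 in set B and 1 in set C (1 to 82 without 1 library, highest without control Flcn/Tfeb replicate 2). The causes were not tested.

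Directions turned for these members, none of them called in that comparison. In the Flcn/Tfeb cross Rab27a went from -0.027 to 0.45 without 1 library, Myo5a to -0.039 with the replicate block and from -0.049 to 0.14 without 1 library, and the difference of Rab38 on log2(CPM + 1) from -0.13 to 0.85 without 1 control. In the Flcn/Tfe3 cross Rab38 went to -0.19 with the replicate block, and Rab32 to 0.012 with no filter and from -0.14 to 0.15 without 1 library. For the difference between the DKO crosses Gpnmb went from -1.64 to 0.45 without 1 library, and Rab38 to -0.49 with the replicate block and from -1.29 to 0.69 without 1 library. In the library where a count weighs most, 3 counts are 2.09 CPM, and where it weighs least 0.639 CPM, which limits what the low levels of Gpnmb can show. The ratio of summed Gpnmb counts without each library was chosen as an alternative after seeing the data; it moved by more than 1.5 times in the Flcn cross (without control replicate 5), the Flcn/Tfeb cross and set B, and over both sets of the Flcn/Tfe3 cross from 1.61 to 3.87 without control Flcn/Tfe3 replicate 1.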
